A study of Mus musculus with 20 samples.

Results

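Imprinted genes are genes that are read mainly from 1 parental allele, and 34 of them were followed here in the amygdala of 20 mice. They were chosen by name as known imprinted genes of the mouse, at a time when earlier results of these arrays were known. For 30 of the 34 the array table held a probe set that names this gene alone, out of 19933 different gene symbols with such a probe set in the whole series. Ago2 had more than 1, and the probe set with the highest mean was used. Snrpn, Ube3a and Gnas were paired only with probe sets that name several genes, and H19 was not paired with a probe set in the platform table, so these 4 have no value here. All results below are on the 30 measured genes.

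The mice were males on the C57BL/6 background (C57BL/6J in the methods), descended from heterozygous parents, aged 7 months at the behavioural test that came before the treatment, and housed singly. WT mice had both copies of the gene of the serotonin transporter (5-HTT, Slc6a4) and KO mice carried the targeted gene on both. In the stress condition a mouse spent 1 min in water of 22 °C per the array labels, and in the con condition it spent 1 min in its home cage. Left and right amygdalae of 1 mouse were pooled. There were 5 arrays in each group, and the groups are called KO stress, KO con, WT stress and WT con, with arrays named below by the replicate number of their labels. A knockout that is constitutive reaches every cell and all of development, so that a genotype difference is not tied to the amygdala or to adult life.

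In an imprinted gene the marks set in the egg or the sperm keep one parental copy silent in the offspring, and the marked stretches are often rich in CG dinucleotides, where DNA methylation is placed. Imprinted genes lie in clusters that share a control region, and many of them act in growth, in the placenta, in feeding and in the hypothalamus. Paternally expressed genes include Peg10, Peg3, Dlk1, Ndn and Igf2, and maternally expressed genes include Meg3, Cdkn1c and Asb4. The arrays measure the RNA of both alleles together, so that no value here says which allele it came from.

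Of the 30 measured genes 10 lie on chromosome 7 and 6 on chromosome 6, and together they lie on 11 chromosomes. Peg10 (chr6:4747306-4760517 in GRCm38.p6) and Sgce (chr6:4674350-4747204) are read away from each other from starts 102 bases apart, and Peg3 (chr7:6703892-6730462) and Usp29 (chr7:6730559-6967220) from starts 97 bases apart. The promoter windows of Peg3 and Usp29 share 263 bases on opposite strands. Nnat (chr2:157560078-157562525) lies wholly inside the span of Blcap (chr2:157556362-157566361), and Ndn and Magel2 lie 27051 bases apart on chromosome 7. RefSeq promoter windows, which run from 250 bases before to 50 bases after a start, were at hand for 24 of the 30 genes, with 36 windows in all. The median window of these genes held 15 CG dinucleotides, against 7 over all 32851 windows, and 19 of the 36 held 15 or more, against 34.6% of all windows. The letters TGCCGC, read on either strand (GCGGCA on the other), which are the core that the imprinting factor ZFP57 binds in methylated DNA, stood in 11 of the 36 windows, against 11.6% of all. A match is a description of the letters only.

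Shown here are windows of the genes that met the criterion used below and that have an entry, since the results turn on these genes, and the windows differ widely in how many CG dinucleotides they hold. CG is in capitals and all else in lower case, and all are in GRCm38.p6, read 5′ to 3′ on the strand of the gene. The window of Nnat is chr2:157559828-157560127 on the plus strand, that of Dlk1 is chr12:109452573-109452872 on the plus strand, that of the first of both Asb4 starts is chr6:5383136-5383435 on the plus strand, and that of the most CG-rich Igf2 start is chr7:142658755-142659054 on the minus strand. Peg10 has no entry.
Nnat: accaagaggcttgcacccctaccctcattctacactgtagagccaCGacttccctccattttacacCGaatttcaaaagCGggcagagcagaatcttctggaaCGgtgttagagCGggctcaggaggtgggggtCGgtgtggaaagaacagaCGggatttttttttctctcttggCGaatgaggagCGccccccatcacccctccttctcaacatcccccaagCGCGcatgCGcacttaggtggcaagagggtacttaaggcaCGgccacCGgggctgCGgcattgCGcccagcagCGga
Dlk1: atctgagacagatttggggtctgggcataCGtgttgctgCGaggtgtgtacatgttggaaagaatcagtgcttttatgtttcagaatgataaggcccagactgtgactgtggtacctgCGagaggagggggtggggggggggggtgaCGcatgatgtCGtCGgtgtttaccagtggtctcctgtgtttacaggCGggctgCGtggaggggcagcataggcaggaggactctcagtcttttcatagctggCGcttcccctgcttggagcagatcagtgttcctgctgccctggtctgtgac
Asb4: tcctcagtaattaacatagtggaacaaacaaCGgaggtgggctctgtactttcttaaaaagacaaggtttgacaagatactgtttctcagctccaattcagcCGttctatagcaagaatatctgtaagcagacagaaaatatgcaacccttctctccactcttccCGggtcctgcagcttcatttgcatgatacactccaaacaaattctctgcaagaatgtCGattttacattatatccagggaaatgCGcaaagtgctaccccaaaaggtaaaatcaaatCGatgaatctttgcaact
Igf2: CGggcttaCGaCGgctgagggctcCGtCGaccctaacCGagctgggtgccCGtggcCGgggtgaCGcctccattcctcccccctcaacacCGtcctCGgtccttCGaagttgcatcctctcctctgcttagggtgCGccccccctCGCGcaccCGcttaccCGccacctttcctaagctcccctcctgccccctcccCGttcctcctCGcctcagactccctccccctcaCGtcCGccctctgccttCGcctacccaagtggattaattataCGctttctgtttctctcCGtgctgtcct
The Nnat window held 17 CG dinucleotides, Dlk1 held 9, Asb4 held 6 and this Igf2 window held 24. Only the Nnat window of these 4 held the ZFP57 letters.

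All values are log2 signals as the authors deposited them, and a difference of 1 is a doubling. They ran from 4.09 to 14.24 over all probe sets, and array medians lay between 6.59 and 6.82. Slc6a4 separated the genotypes, with 5.82 to 7.82 in the 10 WT arrays and 8.10 to 8.38 in the 10 KO arrays, so the arrays labelled KO had the higher signal. The sources used here do not say where its probes lie against the deletion, so this sorts the arrays by genotype and says nothing about the transporter. All 15 genes of a list of amygdala and forebrain neuron markers were measured, with mean signals from 6.37 to 12.16. WT stress replicate 1 and WT con replicate 1 correlated least with the other arrays, with a median correlation of 0.961 and 0.978, and results that rest on them are given without them.

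Groups were compared with limma, fitted over all 28767 probe sets and all 4 groups, with Benjamini-Hochberg adjustment over the whole table. The criterion, taken from the study, asked for more than a 1.5-fold difference together with an unadjusted limma p below 0.05. No measured imprinted gene passed an adjusted p of 0.05 in any of the 7 contrasts, so each p below is unadjusted unless it is named as adjusted. Beside limma stands a two-sided exact permutation p for 5 against 5 arrays, whose smallest value is 0.00794.

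Stressed KO mice had higher signals than stressed WT mice for most of the imprinted genes. The difference of means was positive for 24 of the 30, against 41.3% of all probe sets, and its median was 0.27, against -0.03 over all probe sets. Of the 30, 4 met the criterion, all of them higher in KO stress, where 0.768% of all probe sets met it in either direction and 0.348% met it as higher. They were Peg10, Asb4, Dlk1 and Nnat. Of these only Nnat is in the study's own list for this comparison. By the methods' t-test 1 of the 30 met the criterion, Nnat, and 3 had an unadjusted p under 0.05. At an unadjusted p under 0.05 there were 7, again all higher, where 9.28% of all probe sets passed in either direction and 3.05% as higher. The other 3 were Usp29, Ndn and Plagl1. The lowest adjusted p of the 30 was 0.530.

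**Figure D1:**
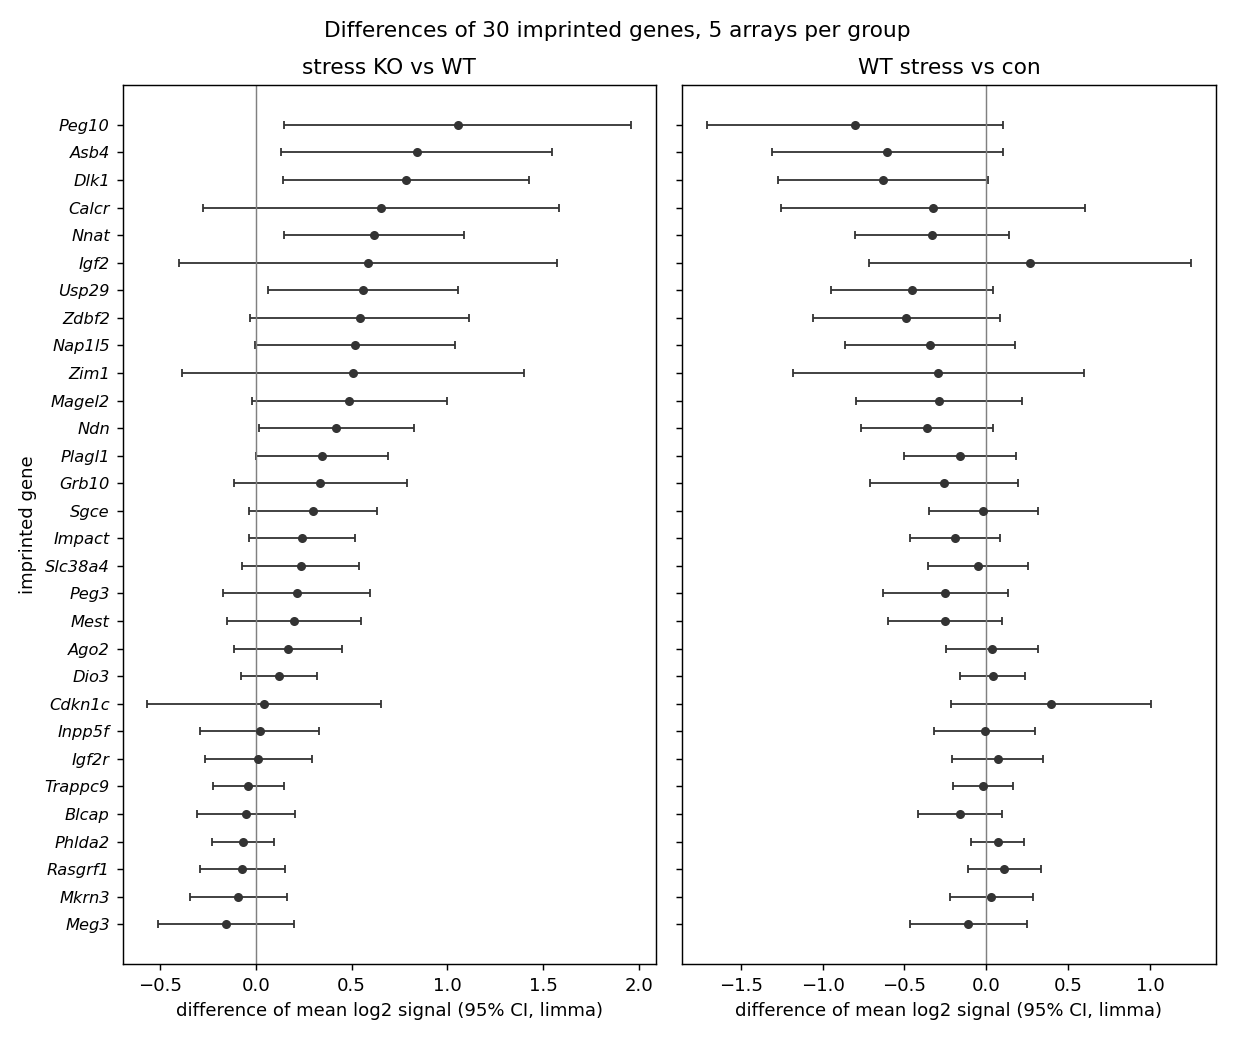
Difference of mean log2 signal (x axis) with its 95% confidence interval from limma for each of 30 imprinted genes (y axis, ordered by the left panel), for stress KO vs WT on the left and WT stress vs con on the right. Peg10 lies at 1.05 on the left and at -0.80 on the right, and both comparisons use the same WT stress arrays.

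Peg10, a gene derived from a retrotransposon and needed for the placenta, had the largest difference. Its log2 signal was 8.70, 11.02, 11.06, 9.01 and 9.36 in WT stress replicates 1 to 5, and 11.27, 11.01, 11.40, 10.34 and 10.39 in KO stress replicates 1 to 5. The groups overlapped, since WT stress replicates 2 and 3 lay among the KO stress arrays while the other 3 lay below all of them. The difference was 1.05 (SE 0.43, 95% confidence interval 0.15 to 1.96, p = 0.0252, exact permutation p = 0.111). In the con condition the signal was 10.16, 10.81, 10.46, 10.87 and 10.85 in WT and 9.51, 11.32, 10.83, 10.92 and 10.96 in KO. All 10 con arrays lay above WT stress replicates 1, 4 and 5, with KO con replicate 1 the lowest of them.

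Asb4, a substrate adaptor of ubiquitin ligases, lies in the same cluster as Peg10. Its log2 signal was 6.42, 7.47, 6.94, 6.36 and 6.25 in WT stress and 8.28, 7.29, 8.11, 6.75 and 7.21 in KO stress. KO stress replicates 1 and 3 lay above all WT stress arrays, and replicate 4 lay below both WT stress replicates 2 and 3. The difference was 0.84 (SE 0.34, p = 0.0224, exact permutation p = 0.0556). Among the con arrays Asb4 was at 6.54, 7.39, 7.10, 7.78 and 7.64 in WT and at 6.24, 7.67, 7.49, 7.63 and 7.17 in KO.

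Dlk1, a membrane protein of the Delta type that holds back the differentiation of fat cells, had log2 signals of 7.50, 8.91, 8.60, 7.54 and 7.26 in WT stress and of 8.97, 8.88, 9.20, 8.34 and 8.34 in KO stress. WT stress replicates 2 and 3 were within the range of KO stress, and the others lay below every KO stress array. The difference was 0.78 (SE 0.31, p = 0.0197, exact permutation p = 0.0873). In WT con the values were close together, at 8.67, 8.51, 8.46, 8.69 and 8.63, and in KO con they were 7.56, 9.005, 8.60, 8.91 and 8.76.

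Nnat, a small proteolipid of the endoplasmic reticulum that is found in the developing and the adult brain, was at 9.89, 10.96, 10.78, 9.78 and 10.14 in WT stress and at 11.25, 10.99, 11.09, 10.75 and 10.56 in KO stress. KO stress replicates 1, 2 and 3 lay above every WT stress array. The difference was 0.62 (SE 0.22, p = 0.0128, exact permutation p = 0.0635), the smallest p of the 30 genes. Con arrays had 10.37, 10.82, 11.06, 10.42 and 10.53 in WT and 10.01, 10.82, 10.70, 10.73 and 10.75 in KO. Blcap, whose span holds Nnat, differed by -0.05 (exact permutation p = 0.722).

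**Figure D2:**
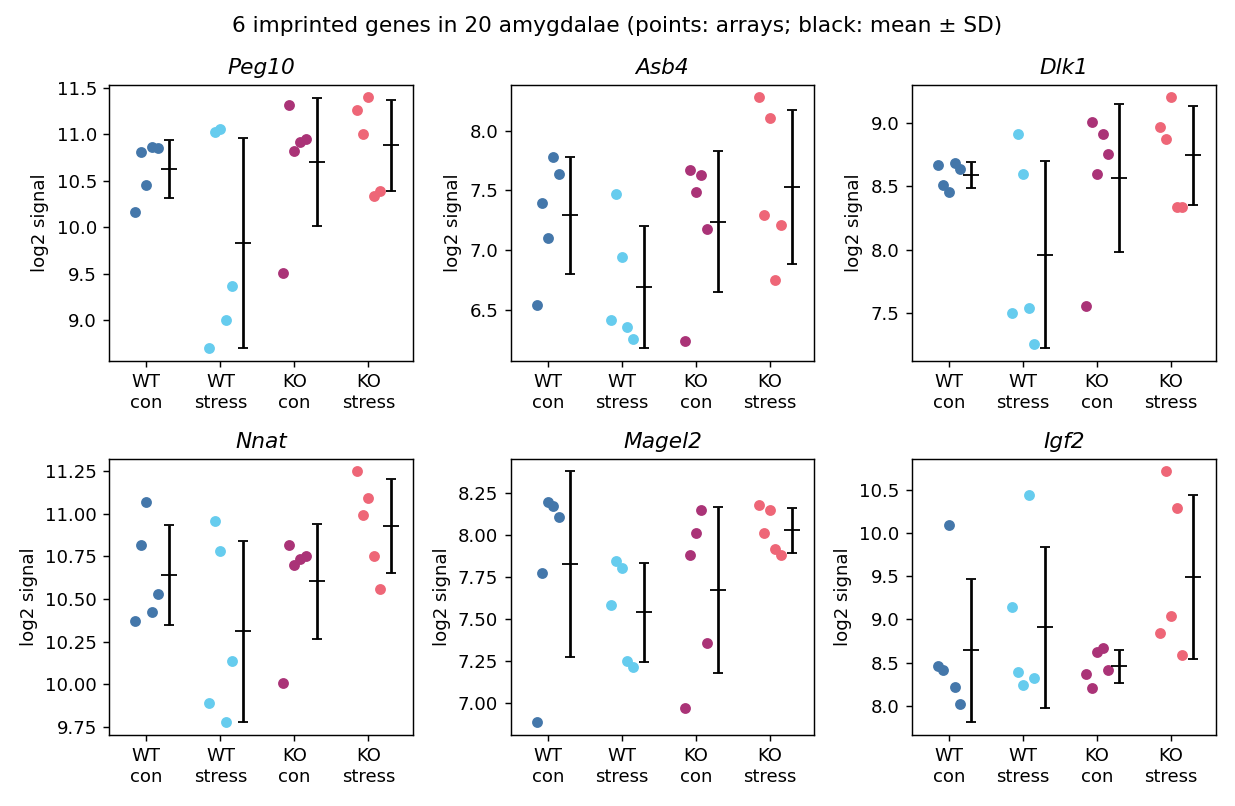
Log2 signal (y axis) of 6 imprinted genes in the 4 groups (x axis). Points are arrays, 1 mouse each, in the order of replicate numbers, and black bars are the mean ± SD (n = 5). In Peg10 and Dlk1 3 of the 5 WT stress arrays lie far below the other 2, and in Magel2 all KO stress arrays lie above all WT stress arrays.

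The measured genes also varied by array within the groups. How many of all probe sets lay above their own mean in each array is not at hand. Counted over the 30 genes, 7, 23, 22, 5 and 5 lay above their own mean over all arrays in WT stress replicates 1 to 5, and 25, 19, 21, 9 and 16 did so in KO stress. The counts were 3, 22, 13, 18 and 20 in WT con and 5, 22, 20, 18 and 20 in KO con. WT stress replicates 1, 4 and 5, WT con replicate 1, KO con replicate 1 and KO stress replicate 4 thus had 9 or fewer genes above their mean. KO stress replicate 1 had the most, at 25. Without WT stress replicate 1 no gene met the criterion, with Peg10 at 0.77, and without KO stress replicate 3 none did either, with Peg10 at 0.92. Leaving out KO stress replicate 1, or replicate 4 or 5 of WT stress, gave 1 gene at it. Without WT stress replicate 2 there were 8, and without WT stress replicate 3 or KO stress replicate 4 there were 7. Nnat kept an unadjusted p under 0.05 in each of these fits.

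**Figure D3:**
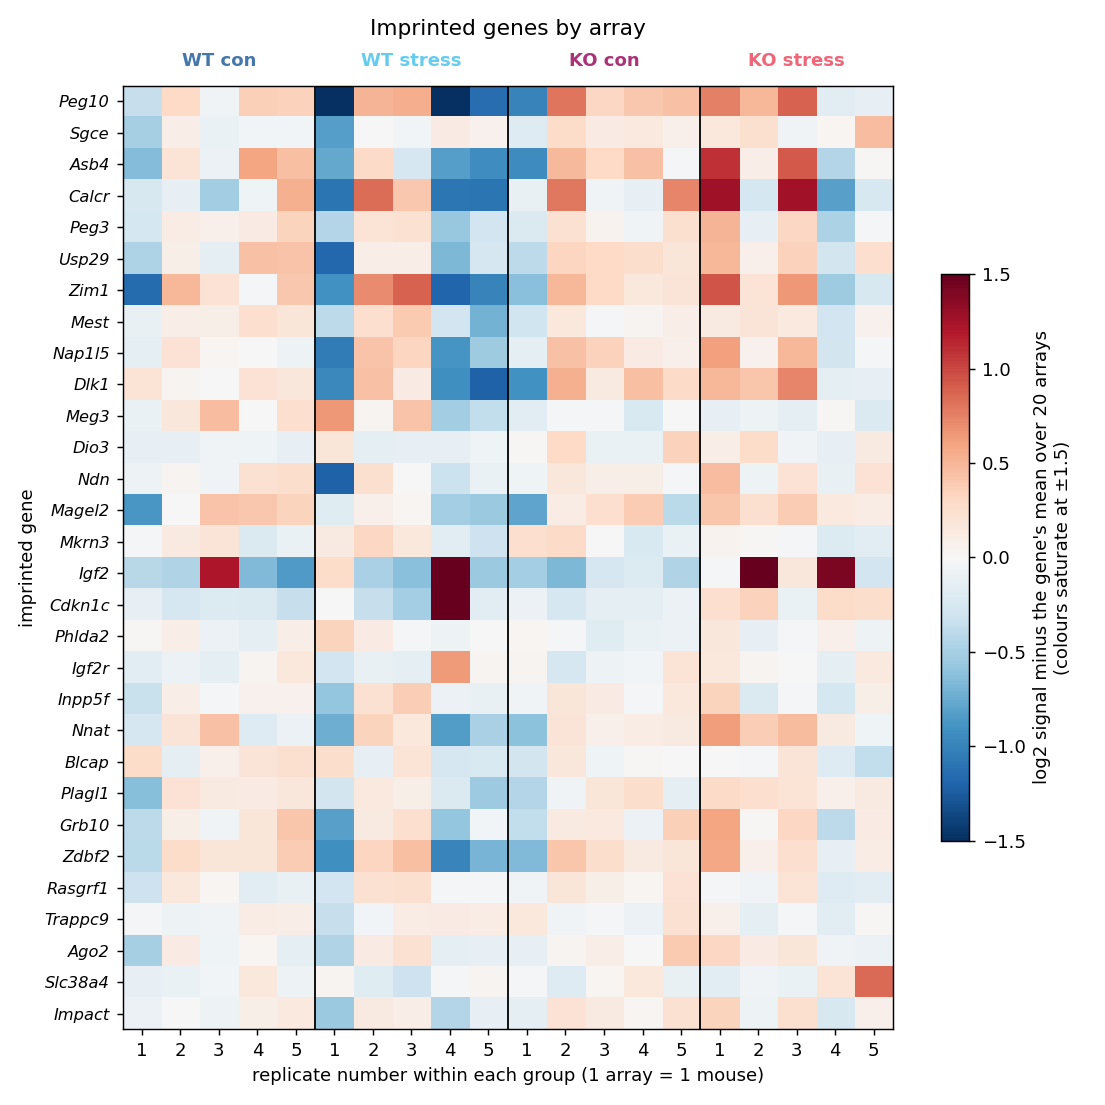
Log2 signal of 30 imprinted genes (y axis, ordered by cluster) in 20 arrays (x axis, by group and replicate number), minus the mean of each gene over the 20 arrays. Red is above and blue below the gene's mean, and colours saturate at ±1.5. WT stress replicates 1, 4 and 5 are blue for most genes from Peg10 to Dlk1, and Igf2 stands apart with its own 4 high arrays.

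Of the Prader-Willi and Angelman region, Ndn and Magel2 are MAGE family genes and Mkrn3 encodes a RING finger protein. Magel2, which acts in protein recycling and in the hypothalamus, was the one measured gene whose stressed groups did not overlap, where 1.02% of all probe sets had groups apart in either direction and 0.358% with KO stress above WT stress. It was at 7.58, 7.84, 7.80, 7.25 and 7.22 in WT stress and at 8.18, 8.01, 8.15, 7.92 and 7.88 in KO stress. The difference was 0.49 (SE 0.24, p = 0.0586, exact permutation p = 0.00794), a fold of 1.40 and so below the criterion. WT con had 6.89, 7.77, 8.19, 8.17 and 8.11, and KO con had 6.97, 7.88, 8.01, 8.15 and 7.36, both wider than KO stress. Ndn, which restrains growth in neurons, was higher in KO stress by 0.42 (SE 0.19, p = 0.0408, exact permutation p = 0.159), and without WT stress replicate 1, at 10.37 the lowest value, this was 0.19. Mkrn3, near the low end of the scale at 5.03 to 5.65 in all arrays, differed by -0.09 (exact permutation p = 0.484).

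In the Peg10 and Sgce cluster all 4 measured genes had the higher mean in stressed KO mice, with a median of 0.75. Calcr, the calcitonin receptor, differed by 0.65 (SE 0.44, exact permutation p = 0.270), with 5.71, 7.65, 7.22, 5.73 and 5.71 in WT stress and 8.09, 6.55, 8.07, 6.00 and 6.58 in KO stress. Its low arrays in WT stress were those in which Peg10 was low. Sgce, a sarcoglycan that is read from the other side of the Peg10 start, differed by 0.30 (SE 0.16, exact permutation p = 0.143), with only WT stress replicate 1 far below the rest, at 7.73. In WT stress replicates 4 and 5, where Peg10 was low, Sgce was at 8.68 and 8.62, the highest of its group.

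In the Peg3 cluster Usp29, named for its likeness to ubiquitin proteases, was higher by 0.56 (SE 0.24, p = 0.0288, exact permutation p = 0.0873). Peg3, a zinc finger protein with a part in maternal behaviour, differed by 0.21 (SE 0.18, exact permutation p = 0.381), and Zim1, a zinc finger gene beside it, by 0.51 (SE 0.42, exact p = 0.349). In the cluster of Dlk1 the non-coding RNA Meg3, read from the maternal allele, differed by -0.16 (SE 0.17, exact permutation p = 0.500), and Dio3, the deiodinase that inactivates thyroid hormone, by 0.12 (SE 0.09, exact p = 0.246). Dlk1 and Meg3 thus had differences of opposite sign, with only that of Dlk1 at an unadjusted p under 0.05, and the difference between them was not tested.

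Plagl1, a zinc finger transcription factor that regulates other imprinted genes, was higher in KO stress by 0.35 (SE 0.16, p = 0.0483, exact permutation p = 0.0397). Its values were 8.56, 8.53, 8.48, 8.35 and 8.41 in KO stress and 8.002, 8.42, 8.37, 8.06 and 7.74 in WT stress, with the top 3 KO stress arrays above all WT stress arrays. Zdbf2, a gene of a paternally read domain, differed by 0.54 (SE 0.27, exact permutation p = 0.151), and Nap1l5, of the nucleosome assembly family, by 0.52 (SE 0.25, exact p = 0.183). Grb10, an adaptor of insulin receptor signalling, differed by 0.34 (exact permutation p = 0.230), Impact, a regulator of Gcn2 signalling, by 0.24 (exact p = 0.206) and Mest, a hydrolase, by 0.20 (exact p = 0.413). Slc38a4 differed by 0.23, Ago2 by 0.17 and Cdkn1c by 0.04, and Rasgrf1, Trappc9, Phlda2, Igf2r and Inpp5f lay between -0.07 and 0.02.

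The genes were also grouped by the allele listed for them as background, which was not measured in this tissue. For Blcap and Inpp5f that allele holds for isoforms, for Grb10 in neurons, and for Trappc9 and Ago2 as a bias in brain. Such limits were listed for these genes only, and the listed allele of the others was not checked for brain cell types. Of 20 genes listed as paternally read, 18 had the higher mean in stressed KO mice, with a median of 0.34. Of 10 listed as maternally read, 6 did, with a median of 0.03. Of all probe sets 41.3% had the higher mean in stressed KO mice, with a median of -0.03. Of the paternal group 3 met the criterion and of the maternal group 1 did, Asb4, where 0.348% of all probe sets met it as higher. Whether the groups differ was not tested, and several of the paternal genes lie side by side.

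In WT mice the same WT stress arrays were set against WT con. No imprinted gene met the criterion in limma, where 0.24% of all probe sets did, none had an unadjusted p under 0.05, where 3.54% did, and the methods' t-test gave 0 by either count. The difference was negative for 22 of the 30, against 37.2% of all probe sets, with a median of -0.18, against 0.03 over all. With the pallial excitatory neuron score as a covariate 16 were negative and the median was -0.01, with the hypothalamus and medial amygdala score it was -0.12, and without WT stress replicate 5 it was -0.11. Dlk1 had the smallest p, at -0.63 (SE 0.31, p = 0.0542, exact permutation p = 0.143), and Peg10 was at -0.80 (SE 0.43, exact permutation p = 0.175). Asb4 was at -0.60 (exact permutation p = 0.0952) and Usp29 at -0.45 (exact p = 0.183). Counts moved with the arrays that entered, since leaving out WT con replicate 1 gave 3 genes at the criterion, leaving out WT stress replicate 2 gave 4, replicate 3 of that group gave 3, and KO con replicate 1 gave 1.

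In KO mice stress was set against con with other arrays. The difference was positive for 20 of the 30, against 48.5% of all probe sets, with a median of 0.07. That direction rested on single arrays of both groups. Without KO con replicate 1 the median was -0.04 with 11 positive, and without KO stress replicate 1 it was -0.002 with 15. Only Igf2 met the criterion and passed an unadjusted p of 0.05, where 0.139% of all probe sets met the criterion and 1.13% passed that p. The study's own list for this comparison also holds Igf2. Igf2, the insulin-like growth factor that is made in the brain mostly by choroid plexus and meninges, was at 8.36, 8.21, 8.63, 8.67 and 8.42 in KO con and at 8.84, 10.72, 9.04, 10.29 and 8.58 in KO stress. KO stress replicates 2 and 4 were far above the others, and replicate 5 lay within KO con. The difference was 1.04 (SE 0.47, 95% confidence interval 0.05 to 2.02, p = 0.0402, exact permutation p = 0.0238). In WT arrays Igf2 was as uneven, at 8.46, 8.42, 10.09, 8.22 and 8.02 in con and at 9.15, 8.39, 8.24, 10.44 and 8.32 in stress, with 1 array past 10 in each group. Without KO stress replicate 2 the difference was 0.73 and without replicate 4 it was 0.84, neither with an unadjusted p under 0.05, and it also lost the criterion without KO con replicate 1, 2 or 5 (1.01, 0.97 and 1.03).

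Cdkn1c, an inhibitor of cyclin-dependent kinases that lies near Igf2 on chromosome 7, was at 7.16, 6.999, 7.10, 7.10 and 7.16 in KO con and at 7.50, 7.59, 7.15, 7.52 and 7.51 in KO stress. All KO stress arrays but replicate 3 lay above all KO con arrays. The difference was 0.35 (SE 0.29, p = 0.242, exact permutation p = 0.0238), with a shared spread in limma that takes in WT stress replicate 4, at 9.08 against 6.73 to 7.24 in the other WT stress arrays. Without that array the difference was still 0.35, with an SE of 0.09 in place of 0.29, and its unadjusted limma p fell below 0.05, though the fold stayed under 1.5. Igf2r, the receptor that clears Igf2, differed by 0.07 (exact permutation p = 0.484), and its highest array was also WT stress replicate 4, at 9.13. Phlda2, next to Cdkn1c, differed by 0.08 (exact permutation p = 0.270).

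Without stress the genotypes were close. No imprinted gene met the criterion in limma in con KO vs WT, where 0.0487% of all probe sets did, and none had an unadjusted p under 0.05, where 3.57% did, while the methods' t-test gave 1 gene at that p and 0 at the criterion. The difference was positive for 16 of the 30, against 50.1% of all probe sets, with a median of 0.01, and without KO con replicate 1 it was positive for 23 and without WT con replicate 1 for 11. Peg10 differed by 0.08 (SE 0.43, 95% confidence interval -0.83 to 0.98), Nnat by -0.04 (SE 0.22) and Igf2 by -0.18 (SE 0.47). Dio3 had the smallest p, at 0.19 (SE 0.09, p = 0.0556, exact permutation p = 0.0952).

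The interaction asks whether stress moved a gene differently in the genotypes. It was positive for 22 of the 30, against 40.3% of all probe sets, with a median of 0.27, against -0.03 over all probe sets. The median was 0.10 with the hypothalamus and medial amygdala score as a covariate, 0.05 with the pallial score and 0.17 without KO stress replicate 1. None met the criterion or an unadjusted p of 0.05, where 0.591% and 2.52% of all probe sets did. Nnat was nearest, at 0.66 (95% confidence interval -0.01 to 1.32), followed by Asb4 at 0.89 (-0.11 to 1.89), Magel2 at 0.64 (-0.08 to 1.36) and Dlk1 at 0.81 (-0.10 to 1.72). Peg10 was at 0.98 (-0.30 to 2.26). All these intervals take in 0. When the WT arrays were blocked by replicate number, a block picked from these data, Nnat alone met the criterion, at 0.66 (SE 0.23). The labels do not say what a replicate number means, so this fit does not settle the interaction. The higher values of stressed KO than of stressed WT mice are therefore not shown to depend on stress.

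Averaged over both conditions, 25 of the 30 were higher in KO, against 44.8% of all probe sets, with a median of 0.16, which was 0.09 with the hypothalamus and medial amygdala score as a covariate and 0.07 without replicate 1 of both WT groups. Sgce was higher by 0.25 (95% confidence interval 0.02 to 0.49) and Dio3 by 0.16 (0.02 to 0.30), the 2 genes with an unadjusted p under 0.05, where 12% of all probe sets had one, and neither reached a fold of 1.5, which 0.139% of all probe sets did together with that p. Dio3 ran only from 5.09 to 5.59, near the low end of the scale. Averaged over both genotypes, stress gave a positive difference for 10 of the 30, against 60.6% of all probe sets, with a median of -0.06. The direction turned with 3 of the marker scores as covariates, to 21 positive with the choroid plexus score, 16 with the meninges score and 22 with the pallial score. None of the 30 met the criterion, where 0.0556% of all probe sets did, or passed an unadjusted p of 0.05, where 1.67% did. Igf2 was nearest, at 0.65 (95% confidence interval -0.05 to 1.35).

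Peg10 was then compared across arrays with the other 29 genes, after taking the group means from each value, so that group differences play no part. There were 34 relations, the 29 genes and 5 marker scores, with 100000 permutations within groups. Of the 29 genes 18 went with Peg10 at adjusted p under 0.05 by both Pearson's r and Spearman's rho. Slc38a4, an amino acid transporter with a low mean signal of 5.91, went against Peg10 at that adjusted p by both. The share of all probe sets that pass the same permutation test is not at hand, so the count of 18 has no background. By size alone, 11 of the 29 had r over 0.8, as did 0.657% of the other 28766 probe sets of the array, and 23 had a positive r, as did 48.2%. Zdbf2 was nearest, with r = 0.947 and rho = 0.887 (adjusted permutation p = 0.00034 and 0.000567), and r = 0.930 without the 2 arrays farthest from the median of Peg10, KO con replicate 1 and WT stress replicate 1. Dlk1 had r = 0.921 and rho = 0.919 (adjusted permutation p = 0.00153 and 0.000567), and 0.907 without those arrays. Nap1l5 had r = 0.914 (0.917 without them) and Zim1 0.898 (0.917). Sgce, which shares the start region with Peg10, had r = 0.430 (adjusted permutation p = 0.204), and 0.0412 without them. The genes share arrays, so these relations are not independent of one another.

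Peg10 signals fell into 4 arrays at or below 9.51 and 16 arrays at or above 10.16, a split seen in the values. Within the 16 arrays 26 of the 29 relations were positive, and 6 genes passed an adjusted p of 0.05 by both measures over 31 relations, Asb4 (r = 0.854), Zim1 (0.847), Peg3 (0.808), Dlk1 (0.781), Mest (0.777) and Zdbf2 (0.759). Nnat did not, with r = 0.529 (adjusted permutation p = 0.155), after 0.871 over all arrays. Slc38a4, which went against Peg10 over all arrays, did not pass either, with r = -0.591 (adjusted permutation p = 0.134). Shares of all probe sets within the 16 arrays are not at hand, so these counts are not shown to be particular to imprinted genes.

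Genes that mark the hypothalamus and the medial amygdala moved with Peg10. The list held 27 measured genes, none of them imprinted genes of the set, and none with a mean signal under 5. In stress KO vs WT 24 of the 27 were higher, against 41.3% of all probe sets. Their median was 0.38, against -0.03 over all probe sets. In WT stress vs con 8 were higher, and 37.2% of all probe sets were lower there. The median of the list was then -0.12, against 0.03 over all probe sets. Named next are the 4 genes of the list with the largest differences in stress KO vs WT. Nts, the neurotensin precursor, differed by 0.90 (exact permutation p = 0.190), Gpr165, an orphan receptor, by 0.89 (0.127), Irs4, an insulin receptor substrate of the hypothalamus, by 0.86 (0.310) and Gpr101, also an orphan receptor, by 0.85 (0.206). The log2 of the list's summed signal ran from 12.84 to 13.32 in WT con, from 12.24 to 13.40 in WT stress, from 12.73 to 13.41 in KO con and from 12.51 to 13.84 in KO stress. Its score, the mean of centred values, was -0.53, 0.43, 0.42, -0.78 and -0.60 in WT stress replicates 1 to 5, low in the arrays of that group where Peg10 was low. Other groups matched less closely. KO con replicate 1, with Peg10 at 9.51, had a score of -0.12. KO stress replicates 4 and 5, with Peg10 at 10.34 and 10.39, had lower scores of -0.39 and -0.37. Across arrays the score went with Peg10 at r = 0.7998 and rho = 0.829 (adjusted permutation p = 0.000708 and 0.00107), and at 0.859 without the 2 farthest arrays. Within the 16 arrays of higher Peg10 it was r = 0.802 and rho = 0.759 (adjusted permutation p = 0.0388 and 0.0581). Pallial excitatory neuron markers went the other way, at r = -0.760 (adjusted permutation p = 0.00748), and at -0.465 within the 16 arrays (adjusted permutation p = 0.284).

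With the hypothalamus score as a covariate none of the 4 genes met the criterion in stress KO vs WT, and Igf2 did, at 0.94. Without a covariate Igf2 differed there by 0.59 (SE 0.47, limma p = 0.228, exact permutation p = 0.294). Peg10 was at 0.57, Dlk1 at 0.46, Asb4 at 0.49 and Nnat at 0.40, all under a fold of 1.5, with Dlk1 and Nnat at an unadjusted p under 0.05. The median over the 30 genes was then 0.12, with 22 positive. With the pallial score Peg10 was at 0.66 and the only one at the criterion. In bulk tissue fewer cells of a type and less RNA per cell cannot be told apart, and the part of the dissected region in these differences was not tested.

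**Figure D4:**
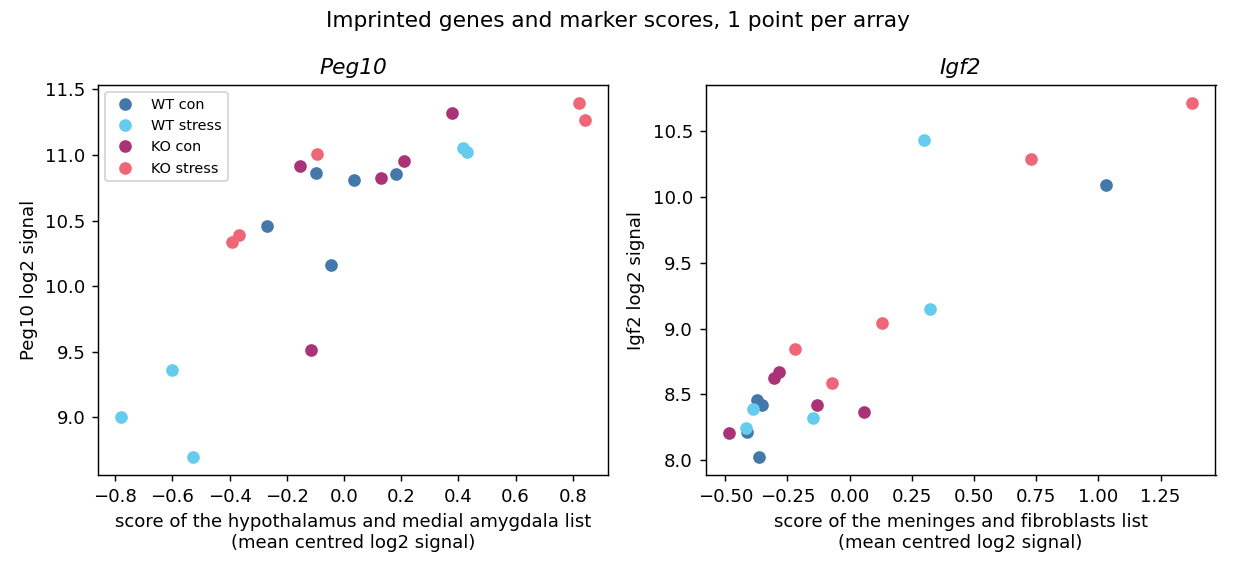
Log2 signal of Peg10 against the score of the hypothalamus and medial amygdala list (left), and of Igf2 against the score of the meninges and fibroblasts list (right), 1 point per array, coloured by group. The score is the mean log2 signal of the list after centring each gene on its mean over 20 arrays. The 3 WT stress arrays with low Peg10 have the 3 lowest scores on the left, and the 4 arrays with Igf2 past 10 have scores of 0.30 or more on the right.

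Igf2 and Cdkn1c moved with other markers. In KO stress vs con all 18 measured choroid plexus genes were higher, with a median of 1.03, and 10 met the criterion. All 20 meninges and fibroblast genes were higher, with a median of 0.59. Of all probe sets 48.5% were higher and 0.139% met the criterion in that comparison. Both lists hold genes that the study lists from these arrays, so their direction is not independent evidence. Transthyretin (Ttr) was at 2.57 (exact permutation p = 0.0317) and the potassium channel gene Kcnj13 at 2.54 (exact p = 0.0159). Of the meninges list, the proteoglycan gene Ogn differed by 1.08 (exact permutation p = 0.0794) and Igfbp2, which encodes a binding protein of Igf2, by 1.05 (exact p = 0.0238). None of these genes had a mean under 5. The log2 of the summed choroid plexus signal ran from 11.20 to 12.62 in WT con, from 10.79 to 14.60 in WT stress, from 10.84 to 11.79 in KO con and from 11.33 to 14.11 in KO stress, and that of the meninges list from 11.18 to 12.69, 11.16 to 12.11, 11.08 to 11.62 and 11.37 to 13.05 in the same order.

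The 4 arrays with Igf2 past 10, WT con replicate 3, WT stress replicate 4 and KO stress replicates 2 and 4, had meninges scores of 1.03, 0.30, 1.38 and 0.73, while KO con ran from -0.49 to 0.06. WT stress replicate 1 had a score of 0.32, above that of WT stress replicate 4, with Igf2 at 9.15. Over all 20 arrays Igf2 went with the meninges score at r = 0.882 and rho = 0.905 (adjusted permutation p = 0.00078 and 0.00072). Without the 2 farthest arrays, WT stress replicate 4 and WT con replicate 3, r was 0.887. With the choroid plexus score Igf2 had r = 0.690 and rho = 0.663 (adjusted permutation p = 0.0129 and 0.0187). Since Igf2 fell into 4 arrays past 10 and 16 arrays at or below 9.15, a relation is also given within the 16 alone. There the meninges score had r = 0.630 and rho = 0.450 (adjusted permutation p = 0.15 and 0.17) and r = 0.223 without the 2 farthest arrays, so that it could not be shown among the lower arrays. Once the meninges score entered the fit, Igf2 differed in KO stress vs con by 0.18 (SE 0.26), and with the choroid plexus score 0.25 (SE 0.40). For Cdkn1c the choroid plexus score had r = 0.891 and rho = 0.657 (adjusted permutation p = 0.00078 and 0.0064, 4 relations), and r = 0.735 without the 2 farthest arrays, WT stress replicates 4 and 3. The meninges score had r = 0.316 and rho = 0.337 with Cdkn1c (adjusted permutation p = 0.034 and 0.17). With the choroid plexus score as a covariate the Cdkn1c difference in KO stress vs con was -0.28 (SE 0.16) after 0.35 without it. Both scores hold genes that the study lists for this same comparison. A changed difference in these fits is therefore not independent evidence, and its cause was not tested.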

How the data were processed

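RNA of both amygdalae of 20 male mice was hybridized, 1 mouse per array, in 4 groups of 5, and samples were grouped by their labels. ExonRMA (ArrayAssist) served the authors for summarizing and normalizing probe signals, with variance stabilization, and they deposited log2 values of 28767 probe sets, which were used as deposited. The members, lists and tests were chosen with earlier results of these data known, and the rule named all members (1 probe set each), with values of every array for Peg10 and those that met the criterion, and up to 4 genes of a marker list by the size of their difference. Magel2, Calcr, Plagl1 and Cdkn1c were given by array, and 5 rather than 4 other imprinted genes named, after their values were seen. Symbols came from the platform table, of 21776 probe sets with 1 symbol, and positions and promoters from RefSeq (GRCm38.p6).

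Contrasts came from limma 3.58.1 under R 4.3.3, with lmFit and eBayes on a mean per group and 16 residual degrees of freedom, tested first on simulated data. The methods' t-test was run on the same values. Exact permutation tests used 252 splits. Alternatives covered variance, weights, scaling, filters, probe sets, blocks, marker scores as covariates and left-out arrays. The split of arrays at a log2 signal of 10 was chosen after the data were seen. Replicate numbers paired only the WT arrays (correlations of deviations from 0.162 to 0.420 for same-numbered WT con and WT stress arrays), and the labels do not say what a number means. The number of arrays limits the precision. Where nothing names separate litters or days, p-values measure the spread between these mice. Python 3.11.15, scipy 1.17.1 and matplotlib 3.10.9 were used.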

Additional observations from a re-analysis of the deposited data

Results flagged for a closer look

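In 14 of 120 sets of 5 arrays (30 genes in 4 groups) the highest or lowest array lay apart from the other 4, with a gap to its neighbour of over 0.71 of the group's range, where chance gives about 1 in 20 groups. KO con replicate 1 was the low array for 5 genes, Peg10 (9.51), Usp29 (9.39), Dlk1 (7.56), Nnat (10.01) and Zdbf2 (8.73). WT con replicate 1 was the low array for Inpp5f (8.36), Plagl1 (7.64) and Zdbf2 (8.996), and WT stress replicate 1 was low for Sgce (7.73) and high for Dio3 (5.42). Mest was low in KO stress replicate 4 (9.87). Igf2 was high in WT con replicate 3 (10.09). Cdkn1c was high in WT stress replicate 4 (9.08) and low in KO stress replicate 3 (7.15). KO con replicate 1 and WT con replicate 1 are 1 mouse each, so the genes named for them are not separate instances.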

How the results depend on the processing

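No called result turned direction under the settings run, and in con KO vs WT all of them gave 0 genes. In WT stress vs con (0 genes) 1 gene met the criterion with trend and robust settings, quantile normalization, centring on array medians or a mean log2 of at least 5, and 2 did with the replicate block in all groups, while leaving out each array in turn gave 0 to 4. In KO stress vs con (1 gene) the choroid plexus score, the meninges score and leaving out WT con replicate 1 and WT stress replicate 1 together gave 0, and leaving out each array gave 0 to 1. In stress KO vs WT (4 genes) 1 gene met it with the methods' t-test, array weights, the hypothalamus score, the pallial score or without both of those WT arrays, 7 with the choroid plexus score and 9 with the meninges score, and leaving out each array gave 0 to 8. For the interaction (0 genes) 1 gene met it with trend and robust settings, array weights, quantile normalization, centring, the level filter, the replicate block in all groups, the replicate block in WT arrays or without both WT arrays, and 6 did with the choroid plexus score or the meninges score, with 0 to 4 when each array was left out. The stress average (0) gave 0 to 1 and the genotype average (0) 0 to 2 when each array was left out, and the latter 2 with the meninges score. At an unadjusted p under 0.05 the replicate block in all groups and in WT arrays gave 11 and 10 genes in stress KO vs WT (7 without it), 5 and 6 for the genotype average (2 without it), 2 and 2 in WT stress vs con and for the interaction, 2 and 1 in con KO vs WT, and 0 and 1 for the stress average (0 without it in these 4). Why the counts moved was not tested. At 5 arrays a group, counts of this size rest on single arrays.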

Other observations

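A wider list of 47 other imprinted genes, of which 37 were measured, had medians near 0. In stress KO vs WT 19 of the 37 were higher, against 41.3% of all probe sets, with a median of 0.00, and in WT stress vs con 19 were, with a median of 0.00. At an unadjusted p under 0.05 in stress KO vs WT there were 5 of the 37, against 9.28% of all probe sets in either direction and 3.05% as higher. Of these 4 were higher, Qpct (0.48), a glutaminyl cyclase, Gpr1 (0.26), a chemerin receptor, H13 (0.23), a signal peptide peptidase, and Cd81 (0.19), a tetraspanin, and Ascl2 (-0.20), a transcription factor of the placenta, was lower. None of the 37 met the criterion in that comparison. Pon3, a paraoxonase of the Peg10 cluster, met it for stress averaged over genotypes, as did 0.0556% of all probe sets, at 0.59 (SE 0.27), with 0.44 (exact permutation p = 0.667) in WT and 0.73 (exact p = 0.0159) in KO. The study lists Pon3 for KO stress vs con.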
